A study of Homo sapiens with 24 samples.

Results

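The response of SK-MES1 cells to TGFβ was described at 24 h, from the 3 libraries labelled as TGFβ-treated and the 3 labelled as untreated control at that time, 6 of the 24 libraries of the series. SK-MES1 is a human cell line labelled as squamous cell lung carcinoma, and every library came from this one line. Cells in dishes were kept without growth factors for 3 h and then cultured with TGFβ1 at 2 ng/ml or without it, so the control cells carried the same depletion and the same 24 h in culture without the ligand. The series also holds both arms at 0, 8 and 48 h, with 3 libraries each, which were used to estimate the spread and to compare the 24 h difference with the differences before and after it. The replicates are described as biological, and the sources do not say whether the dishes were seeded on separate days, so the p-values measure only the spread between these samples.

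TGFβ binds a type II and a type I receptor kinase, and the active receptor phosphorylates SMAD2 and SMAD3, which join SMAD4 and bind DNA in the nucleus. The pathway switches on its own inhibitors, among them SMAD7, which blocks the receptor, and it opposes the related BMP branch, whose classical targets are the ID genes. In epithelial and carcinoma cells it is known for inducing extracellular matrix, integrins and contractile actin genes, for driving epithelial-to-mesenchymal transition (EMT), and in many epithelial cells for holding the cell cycle in G1.

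The 6 libraries held between 47233105 and 65273825 estimated counts. Levels are given as TPM, the share of a gene in all transcripts of a library after correction for transcript length, scaled to the same total in every library. The 3 values of an arm are in the order of the replicates. Differences are log2 fold changes of TGFβ-treated over untreated cells ± SE from a limma voom model, and bare values in parentheses after a gene are such log2 differences. A gene is called higher or lower where its adjusted p was below 0.01. Replicate 2 of both arms stood apart from its neighbours. Its voom quality weight was 0.258 in untreated and 0.143 in treated cells, against 0.674 to 4.04 in the other 4 libraries of 24 h. Low weights also occurred at 0 h, with 0.317 to 3.45 in untreated and 0.126 to 1.89 in treated cells. The arms also carry different codes in the table names at 24 h, a code whose meaning the sources do not give, so arm and code cannot be told apart there. At 0 h, where the codes of the arms differ as well, limma voom called 0 genes, edgeR 0 and DESeq2 8. In limma voom 800 genes had an unadjusted p below 0.05 there. Each arm has another code at 0 h than at 24 h, so these counts cannot show whether the code matters at 24 h. Mitochondrial transcripts made up 10.5 to 11.2% of TPM in untreated and 11.8 to 12.5% in treated cells, and their part in the results was not tested. The squamous label had mixed marker support. KRT5, KRT6A, KRT14 and DSG3, markers of squamous cells, were at or near 0 in all 6 libraries, whereas TP63, PKP1, PERP and S100A2 were expressed and the simple epithelial keratins KRT8 and KRT18 stood at 473 to 567 TPM. Among 8 immune markers, CD3E was at 0 and the summed level was 16.03 to 18.8 TPM in untreated and 17.5 to 18.6 TPM in treated cells, most of it CD68.

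Of 17453 tested genes, 5112 passed an adjusted p of 0.01 at 24 h, 29.3% of the genes tested. Of these, 2696 were higher with TGFβ (15.4%) and 2416 lower (13.8%). Values of the arms that did not overlap were seen in 40.3% of the genes tested. A difference of at least 2-fold was reached by 605 genes that were higher (3.47%) and 491 that were lower (2.81%), together 6.28% of the genes tested. The median log2 difference of all tested genes was -0.015. Without replicate 2 of both arms 4352 genes were called. The split between directions depended on scaling: with library totals in place of TMM factors, 1900 genes were higher and 3660 lower, and the median of all genes moved to -0.11. GUSB, HPRT1 and GAPDH, which serve as reference genes for qRT-PCR in these cells, had log2 differences of -0.16, -0.29 and -0.38, the last called as lower. When the libraries were scaled to the study's 4 reference genes, the median of all genes moved to 0.34, with 8490 genes higher and 792 lower, so every list difference given here is to be read against the median of all genes. In bulk RNA a change within every cell and a change in the share of cells that express a gene cannot be told apart.

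The genes that were higher and the genes that were lower differed in how far each arm had moved from 0 h. Of the 605 higher genes, 396 stood at least 2-fold above their 0 h level in the treated arm itself, and 151 stood at least 2-fold below it in the untreated arm. Of the 491 lower genes, 126 stood at least 2-fold below their 0 h level in treated cells, while 255 stood at least 2-fold above it in untreated cells. The median log2 change from 0 h was 1.34 in treated and -0.40 in untreated cells for the higher genes, and -0.35 in treated and 1.03 in untreated cells for the lower genes. These changes share the 24 h libraries with the comparison that chose the genes and are a description. Within each arm, the 0 h and 24 h libraries also carry different codes, whereas those of 24 and 48 h share one. A shared code is not established for 8 h, so in tests of 24 h against 8 h time and code may not be separable.

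**Figure D1:**
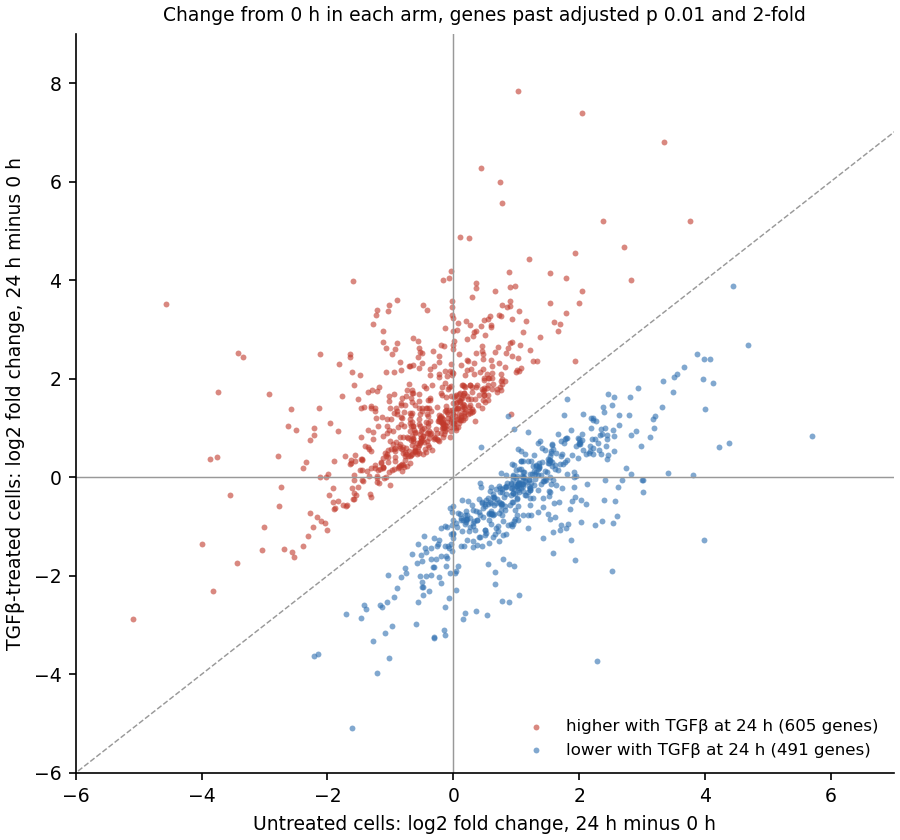
Change from 0 h to 24 h in untreated cells (horizontal axis, log2 fold change) and in TGFβ-treated cells (vertical axis, log2 fold change) for the 605 genes that were at least 2-fold higher (red) and the 491 that were at least 2-fold lower (blue) with TGFβ at 24 h. Points on the dashed line would have changed equally, and most blue points lie right of 0 on the horizontal axis, with a median of 1.03 in untreated cells.

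The gene lists differed in direction. In the endoplasmic reticulum, amino acid, G1/S and SMAD feedback lists most tested members were higher, and in the interferon, cholesterol and fatty acid lists most were lower, against 15.4% and 13.8% over all genes. None of the 77 ribosomal protein genes was called by limma voom, edgeR or DESeq2, with 11 at an unadjusted p below 0.05 and a median of -0.08. With library totals 25 of them were called as lower, with a median of -0.18.

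**Figure D2:**
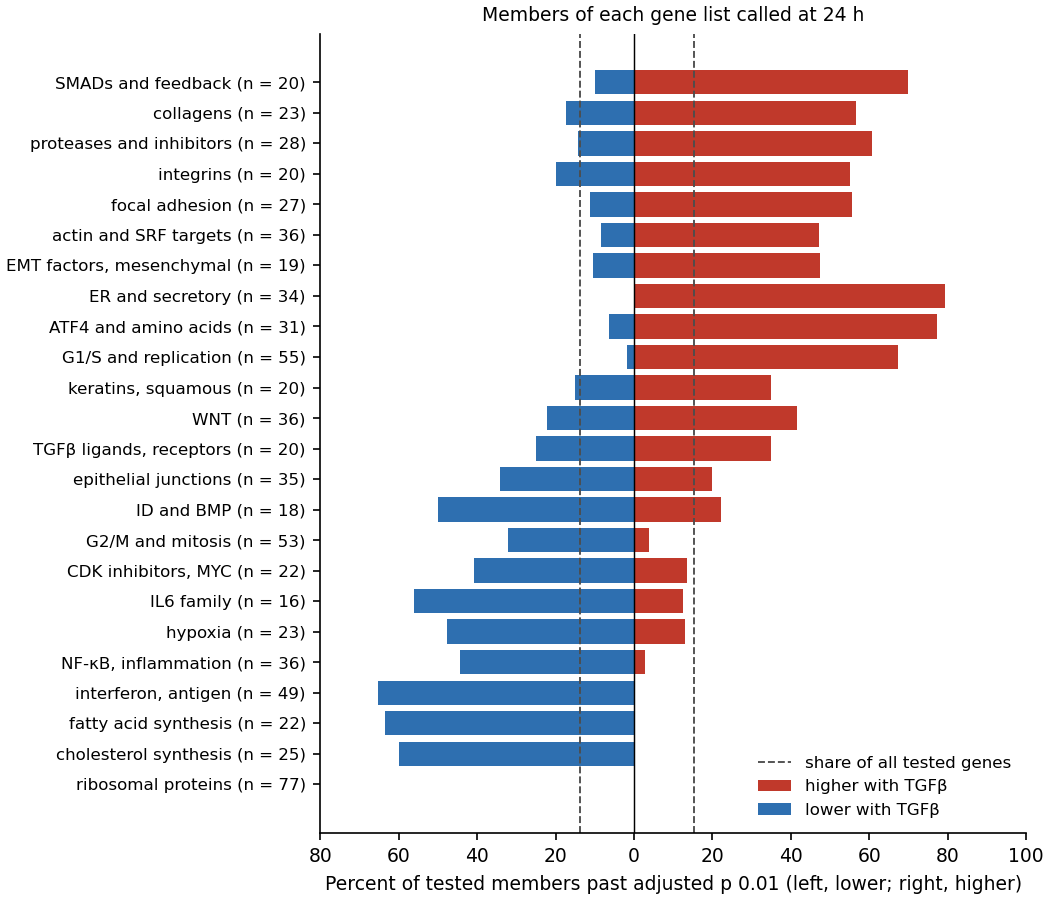
Percent of the tested members of 24 gene lists that passed adjusted p 0.01 at 24 h, with members lower with TGFβ drawn to the left in blue and members higher drawn to the right in red, and dashed lines at the shares over all tested genes, 13.8% and 15.4%. The endoplasmic reticulum and interferon lists had called members in 1 direction each, 27 of 34 higher and 32 of 49 lower.

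The pathway's own regulators were among the genes with the largest differences. Of 20 tested SMADs, SMAD cofactors and feedback regulators, 14 were higher and 2 lower, with a median of 0.46. PMEPA1 (chromosome 20, 57648392 to 57711536), a membrane protein that binds receptor SMADs and dampens the signal, was at 30.1, 23.2 and 27.00 TPM in untreated and 537, 372 and 498 TPM in treated cells. The groups lay far apart, and the difference of 4.49 ± 0.041 had the lowest p among the genes named by rank below (adjusted p = 5.22e-25). FSTL3 (chromosome 19, 676392 to 683392), a secreted binder of activins, was at 12.8, 9.95 and 11.9 TPM without and 187, 143 and 184 TPM with TGFβ, a difference of 4.08 ± 0.15. SKIL, which encodes the corepressor SnoN, was at 8.45, 10.2 and 8.53 TPM and 63.9, 87.7 and 65.7 TPM in the same order, a 9.28-fold difference. SMAD7 was at 6.73, 6.34 and 6.64 TPM in untreated and 33.1, 33.8 and 34.1 TPM in treated cells, the closest replicates of these 4 genes, with a difference of 2.37 ± 0.056. LDLRAD4, a membrane relative of PMEPA1 that also inhibits the pathway, was low, at 0.547, 0.571 and 0.672 TPM and 2.42, 1.82 and 2.39 TPM, and higher by 2.46 ± 0.13. SMAD3 itself was at 135, 117 and 131 TPM and 111, 99.4 and 109.8 TPM and was not called (-0.05 ± 0.031, adjusted p = 0.178), although the TPM values did not overlap. It was called lower with library totals (-0.15), on log2(TPM + 1) (-0.26) and log2(TPM + 0.1) (-0.26) and with quality weights (-0.08), and higher when scaled to the 4 reference genes (0.30), so its direction depended on the scaling. BAMBI, a decoy receptor, was lower (-0.44).

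The upstream bases of feedback and actin genes that were at least 2-fold higher are shown to give the sequence before their starts, and their shared direction is that of the selection. Windows of 250 bases before each RefSeq start (GRCh38.p14) were searched on both strands for CAGACA, a form of the SMAD-binding element, and for the CArG box bound by serum response factor. CAGACA was found in 13.6% of 35116 windows and the CArG box in 1.16%. The 5 feedback genes at least 2-fold higher had 18 windows, of which 5 held CAGACA, from 2 of the 5 genes and mostly from LDLRAD4, and 1 held the CArG box. The 5 actin genes at least 2-fold higher had 9 windows, of which 2 held CAGACA and 1 the CArG box. Over all tested members, CAGACA was in 9 of 50 feedback and 4 of 59 actin windows, and the CArG box in 2 of 50 and 7 of 59. The window with most matches is printed for each gene that had one, 5′ to 3′, with the matches in capitals. In FSTL3 and in ACTG1 the CArG match contains the letters TATA. A match is a description of letters and not a binding site.
LDLRAD4 (chr18:13277112-13277361, plus strand): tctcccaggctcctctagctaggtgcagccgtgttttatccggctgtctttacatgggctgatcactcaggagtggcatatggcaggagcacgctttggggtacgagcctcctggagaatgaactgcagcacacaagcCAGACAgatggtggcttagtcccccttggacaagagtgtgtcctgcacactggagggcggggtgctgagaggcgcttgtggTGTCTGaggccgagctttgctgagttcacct
PMEPA1 (chr20:57710578-57710827, minus strand): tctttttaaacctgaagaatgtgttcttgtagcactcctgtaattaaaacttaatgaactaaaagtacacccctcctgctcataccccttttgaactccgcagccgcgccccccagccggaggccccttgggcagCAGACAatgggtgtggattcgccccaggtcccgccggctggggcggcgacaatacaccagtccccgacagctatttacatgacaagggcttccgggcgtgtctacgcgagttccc
FSTL3 (chr19:676142-676391, plus strand): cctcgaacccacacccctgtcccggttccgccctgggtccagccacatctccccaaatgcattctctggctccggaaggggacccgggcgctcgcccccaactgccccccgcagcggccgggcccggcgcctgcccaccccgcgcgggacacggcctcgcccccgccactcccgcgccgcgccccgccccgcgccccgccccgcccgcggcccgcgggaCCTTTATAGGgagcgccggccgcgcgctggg
TPM1 (chr15:63048239-63048488, plus strand): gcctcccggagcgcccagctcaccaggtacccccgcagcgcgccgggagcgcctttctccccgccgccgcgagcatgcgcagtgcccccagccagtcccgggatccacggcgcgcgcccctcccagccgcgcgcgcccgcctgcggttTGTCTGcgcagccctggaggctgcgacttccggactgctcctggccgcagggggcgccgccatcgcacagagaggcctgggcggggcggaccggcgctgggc
CNN1 (chr19:11538601-11538850, plus strand): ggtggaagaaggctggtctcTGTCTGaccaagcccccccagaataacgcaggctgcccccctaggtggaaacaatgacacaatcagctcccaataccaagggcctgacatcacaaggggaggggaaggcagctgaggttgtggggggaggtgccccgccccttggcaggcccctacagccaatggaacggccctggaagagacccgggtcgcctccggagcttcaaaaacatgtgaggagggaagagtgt
ACTG1 (chr17:81512800-81513049, minus strand): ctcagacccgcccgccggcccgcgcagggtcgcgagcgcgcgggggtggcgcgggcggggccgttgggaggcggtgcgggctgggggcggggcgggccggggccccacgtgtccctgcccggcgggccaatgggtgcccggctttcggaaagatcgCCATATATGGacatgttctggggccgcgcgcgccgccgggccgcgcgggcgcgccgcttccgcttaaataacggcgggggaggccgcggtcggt

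Ligands and receptors moved in both directions. Of 20 tested genes, 7 were higher and 5 lower, with a median of -0.04. LTBP2, a latent TGFβ binding protein of the matrix, was higher by 2.10 ± 0.065 (mean from 12.6 to 53.7 TPM), THBS1, an activator of latent TGFβ, by 1.47 ± 0.035, and the type I receptor TGFBR1 by 0.80 ± 0.096. TGFBR3, the betaglycan coreceptor, was lower (-1.28), and so was INHBA, the activin A subunit (-1.89). INHBA was at 2.54, 3.07 and 3.04 TPM in untreated and 0.642, 0.776 and 0.695 TPM in treated cells, without overlap. TGFBI (chromosome 5, 136028988 to 136063818), a secreted matrix protein named for its induction by TGFβ, was at 313, 322 and 309 TPM in untreated and 1694, 2040.5 and 1817 TPM in treated cells, a 5.85-fold difference.

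More ID and BMP genes were lower than higher. Of 18 tested ID and BMP genes, 9 were lower and 4 higher, with a median of -0.37. All 4 ID genes, inhibitors of basic helix-loop-helix factors, were lower. ID4 had a low level, and its difference was -2.52 in limma voom but -0.33 on log2(TPM + 1). ID3 (chromosome 1, 23557926 to 23559501) was at 201, 180.5 and 206 TPM in untreated and 25.3, 25.7 and 29.1 TPM in treated cells, a 7.34-fold lower level. ID2 was at 27.01, 22.8 and 26.5 TPM and 6.02, 6.39 and 6.03 TPM, a difference of -2.02 ± 0.09, and ID1 differed least, by -0.62 ± 0.11. The ID3 groups were well separated, and the arms differed in course: the log2 change from 0 h was 1.58 in untreated and -1.11 in treated cells. NOG, a secreted BMP antagonist, was higher by 2.28 ± 0.12 (mean from 2.43 to 11.4 TPM).

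Most called collagen genes were higher. Of 23 tested collagen genes, 13 were higher and 4 lower, with a median of 0.63. COL1A1 (chromosome 17, 50184101 to 50201632) was at 291, 222 and 269 TPM without and 1683, 1215 and 1720.0 TPM with TGFβ. Replicate 2 was the lowest in both arms and the arms did not overlap, with a difference of 2.62 ± 0.13. COL1A2, whose product pairs with that of COL1A1 in fibrillar type I collagen, was at 0.00915 to 0.205 TPM over the 6 libraries. The basement membrane chain COL4A1 was higher by 2.28 ± 0.044, COL7A1 of anchoring fibrils by 1.80 ± 0.12 and COL5A1 by 1.65 ± 0.088. Fibronectin (FN1) was higher by 0.47 ± 0.049 (mean from 322 to 440.0 TPM) and the collagen crosslinking enzyme LOX by 1.32 ± 0.064. Among 10 fibroblast markers, whose summed level was 255 to 323 TPM in untreated and 1260.5 to 1764 TPM in treated cells, COL1A1 carried most of both sums. Of the 9 tested, 4 were higher, all past 2-fold, and 2 lower, 1 of them past 2-fold. The call of COL1A2 as higher was lost in edgeR and DESeq2. PDGFRB was at 5.07 to 6.34 TPM in untreated and 15.1 to 17.7 TPM in treated cells and FAP at 0.283 to 0.404 and 1.70 to 2.94 TPM. DCN went the other way, from 1.67 to 2.46 TPM in untreated to 0.846 to 1.08 TPM in treated cells. COL3A1, DCN, LUM and PDGFRA each stayed below 10 TPM. Summed TPM of the collagen list was 1537 to 1801 in untreated and 2785 to 3665 in treated cells.

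Of 28 tested proteases and inhibitors, 17 were higher and 4 lower, with a median of 0.85. PLAU (chromosome 10, 73909177 to 73917496), the urokinase plasminogen activator, was at 45.4, 40.3 and 47.2 TPM in untreated and 357, 372 and 352 TPM in treated cells, an 8.35-fold difference. The gelatinase MMP2 was higher by 1.08 ± 0.054 (mean from 619 to 1317 TPM) and the membrane protease MMP14 by 0.84 ± 0.053. PRSS2, a trypsinogen with close paralogs that may share reads, was higher by 2.77 ± 0.073. Members also went the other way: the interstitial collagenase MMP1 was lower (-2.78) at a low level, with a mean from 2.01 to 0.288 TPM, and the inhibitor TIMP3 was lower (-1.57, mean from 82.2 to 27.1 TPM).

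Most of the called integrin genes were higher. Of 20 tested integrin genes, 11 were higher and 4 lower, with a median of 0.64. ITGB3 (chromosome 17, 47253827 to 47313743), the beta 3 chain that pairs with ITGAV, was at 9.59, 8.90 and 9.21 TPM in untreated and 93.00, 90.4 and 89.7 TPM in treated cells, a 10.3-fold difference with tight replicates. ITGB6, part of an integrin that activates latent TGFβ, was higher by 2.98 ± 0.12, the collagen receptor chain ITGA11 by 2.13 ± 0.065, ITGA5 by 1.54 ± 0.053 and ITGAV by 1.44 ± 0.087. ITGB8, another partner of ITGAV, was lower (-0.97, mean from 24.6 to 11.98 TPM). Of 27 focal adhesion genes, 15 were higher and 3 lower, with a median of 0.30.

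Actin genes were higher in part. Of 36 tested members of the actin and SRF target list, 17 were higher and 3 lower, with a median of 0.20. TPM1 (chromosome 15, 63042620 to 63071915), a tropomyosin that stabilises actin filaments, was at 149.9, 154 and 144 TPM in untreated and 1308, 1544 and 1402 TPM in treated cells, a 10.1-fold difference. PDLIM7 was higher by 2.19 ± 0.14, CORO2B by 2.29 ± 0.18 and ACTG1 by 1.95 ± 0.22. ACTG1 was at 489, 222 and 447 TPM and 1556, 715 and 1521 TPM, with replicate 2 the lowest in each arm. CNN1, a smooth muscle calponin, was higher by 1.89 ± 0.32, from 0.610, 0.370 and 0.503 TPM to 1.28, 1.35 and 1.40 TPM, and the smooth muscle markers ACTA2 (-0.44) and TAGLN (-0.16) were not called. The kinase MYLK, which activates myosin II, was lower (-1.51). Of 21 tested myosin genes, 8 were higher and 5 lower. MYO10, a filopodial myosin, was at 17.3, 17.4 and 17.04 TPM in untreated and 46.2, 46.4 and 47.7 TPM in treated cells, a difference of 1.48 ± 0.035, and MYO1E was higher by 0.84 ± 0.037. The formin FHOD3 was higher by 1.97 ± 0.034 (mean from 16.3 to 62.5 TPM). All 15 candidate genes that the study named were higher, with a median of 2.29, but the study chose them on these libraries, so their direction is not independent evidence.

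**Figure D3:**
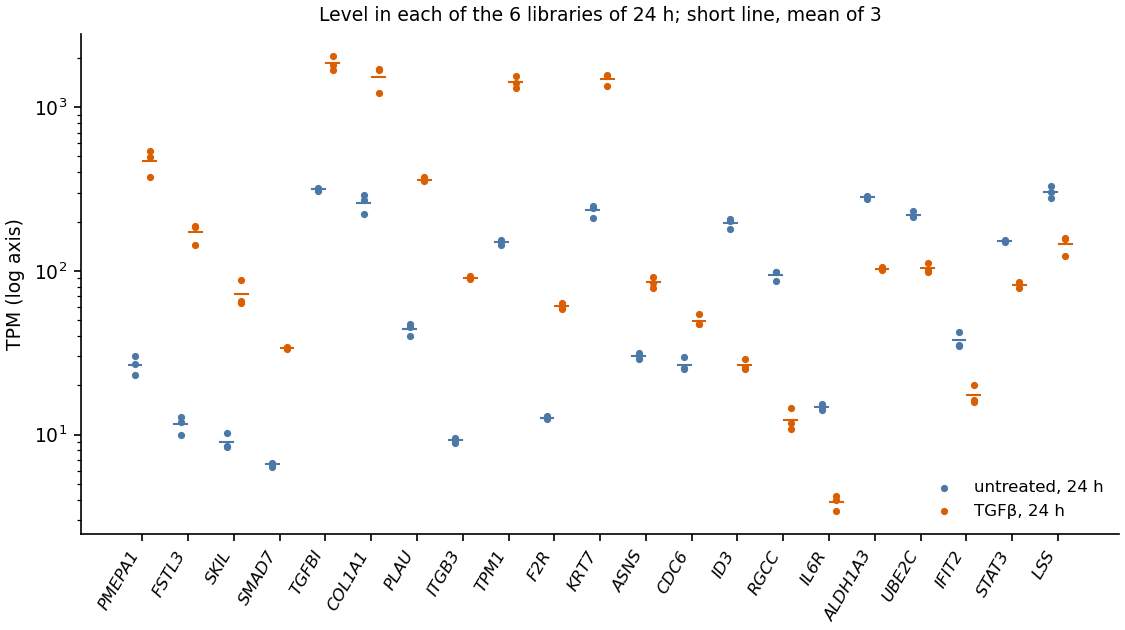
TPM on a log axis in each of the 3 untreated (blue) and 3 TGFβ-treated (orange) libraries of 24 h for 21 genes named in the text, with a short line at the mean of each arm. The arms do not overlap in any of these genes, from PMEPA1 with means of 26.8 and 469 TPM to LSS with 304 and 146 TPM. The genes were chosen with their values known, some by a rule that required no overlap, so this is a description. Of all tested genes, 40.3% had no overlap.

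EMT genes changed in part and the epithelial side was mixed. Of 19 tested EMT factors and mesenchymal markers, 9 were higher and 2 lower, with a median of 0.15. Vimentin (VIM) was at 1342, 1310.2 and 1299 TPM in untreated and 3808, 3654 and 3708 TPM in treated cells, and N-cadherin (CDH2) was higher by 1.20 ± 0.044. The repressors SNAI1 and SNAI2 were higher by 1.21 ± 0.087 and 1.35 ± 0.056, ZEB1 was not called (0.08 ± 0.09, adjusted p = 0.544) and TWIST1 was lower (-0.82). E-cadherin (CDH1) was low in both arms, at 4.54, 2.83 and 2.69 TPM and 3.07, 3.51 and 3.17 TPM, with overlapping values (adjusted p = 0.92). Of 35 tested junction genes, 12 were lower and 7 higher, with a median of -0.22 (0.13 when scaled to the 4 reference genes). The tight junction genes TJP3 (-2.26), CLDN1 (-0.84) and OCLN (-0.80) were lower, as was the desmosome linker PPL (-1.39), whereas the desmosomal plakophilin PKP1 was higher by 1.24 ± 0.051.

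Keratins were higher in part. Of 20 tested keratins and squamous genes, 7 were higher and 3 lower, with a median of 0.20. KRT17, a keratin of stratified and wounded epithelium with close paralogs, was at 0.497, 0.513 and 0.290 TPM without and 17.98, 17.1 and 19.02 TPM with TGFβ. KRT7, a simple epithelial keratin, was at 249, 211 and 243 TPM and 1572, 1349 and 1542 TPM, a 6.31-fold difference. The arms overlapped in KRT8 (492 to 567 TPM untreated, 473 to 566 TPM treated), and likewise in KRT18 and KRT19. TP63, the squamous lineage factor, was higher by 1.02 ± 0.067 (mean from 16.01 to 32.01 TPM) and SOX2, which is often amplified in squamous lung tumours, was lower (-2.74, mean from 7.41 to 1.07 TPM). The 2 lineage factors thus went in opposite directions. At 48 h the TP63 difference was -0.49, and the 24 h difference exceeded it by 1.51 ± 0.093 in a direct test (adjusted p = 8.74e-10).

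Genes of the endoplasmic reticulum and secretory path were higher as a group. Of 34 tested members 27 were higher and 0 lower, with a median of 0.41 and no member past 2-fold. HSPA5, the main chaperone of the compartment, was at 194, 212 and 201 TPM in untreated and 349, 418 and 370.2 TPM in treated cells, a difference of 0.93 ± 0.051. The transcription factor XBP1 was higher by 0.88 ± 0.07 and the chaperone HYOU1 by 0.76 ± 0.044. At 48 h the differences of these 3 genes were 0.02, 0.04 and 0.05, and each was lower than at 24 h (adjusted p = 2.34e-08, 3.78e-06 and 9.01e-08). Over the list, the 24 h difference was above the 48 h difference in 10 genes and below it in 0, against 5.61% and 3.5% of all genes.

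The median difference between the arms in amino acid and ATF4 genes was larger at 24 h than at 8 or 48 h. Of 31 tested members, 24 were higher and 2 lower, with 13 past 2-fold and a median of 0.85. ASNS, which makes asparagine, was at 31.5, 30.7 and 29.02 TPM in untreated and 78.6, 92.02 and 84.4 TPM in treated cells. MTHFD2, a mitochondrial folate enzyme, was at 58.8, 59.9 and 58.3 TPM and 169.6, 211 and 171 TPM, and the large amino acid transporter SLC7A5 was at 38.7, 33.6 and 36.4 TPM and 137, 119 and 137 TPM. The arms were separate for all of these, at 1.58 ± 0.054, 1.63 ± 0.066 and 1.89 ± 0.10. The serine synthesis enzymes PSAT1 and PHGDH were higher by 1.41 ± 0.05 and 1.05 ± 0.084, the stress factors TRIB3 and DDIT3 by 1.49 ± 0.086 and 0.83 ± 0.076, and ATF4 itself by 0.89 ± 0.035. SHMT1, the cytosolic folate enzyme, was lower (-0.38). The list median was 0.17 at 8 h and 0.40 at 48 h. The difference was larger at 24 h than at 8 h in 21 of 31 members and smaller in 0. Over all genes these shares were 4.14% and 2.54%, and in this test time and code may not be separable. Against 48 h it was larger at 24 h in 17 members and smaller in 1, against 5.61% and 3.5% of all genes. The PSAT1 difference was 0.03 at 8 h and 1.41 at 24 h (adjusted p of the change = 4.3e-11). From 0 h to 24 h the list median changed by -0.46 in untreated and by 0.34 in treated cells.

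The cell cycle lists parted at 24 h. Of 55 tested G1/S and replication genes, 37 were higher and 1, RRM2 (-0.28), was lower, with a median of 0.38. Of 53 tested G2/M and mitotic genes, 17 were lower and 2 higher, with a median of -0.12 (0.23 when scaled to the 4 reference genes). From the 6 libraries of 24 h alone, 27 of the G1/S and 7 of the G2/M genes were called. CDC6, which loads the replicative helicase, was at 29.7, 25.5 and 25.3 TPM in untreated and 47.2, 54.7 and 47.2 TPM in treated cells, without overlap. Cyclin D1 (CCND1) was at 97.2, 78.4 and 106 TPM and 208, 185 and 209 TPM, and E2F7, a repressor among the E2F factors, was higher by 1.33 ± 0.065. The DNA methylation cofactor UHRF1 was higher by 0.88 ± 0.075, E2F1 by 0.63 ± 0.089, cyclin E1 (CCNE1) by 0.64 ± 0.074, the helicase subunit MCM6 by 0.53 ± 0.06 and the sliding clamp PCNA by 0.42 ± 0.049. On the mitotic side, UBE2C, a partner of the anaphase-promoting complex, was at 231, 216 and 213 TPM in untreated and 111, 98.4 and 100.8 TPM in treated cells, the kinase PLK1 (-0.49) and the phosphatase CDC25B (-0.74) were lower. Cyclin A2 (CCNA2) was lower (-1.56), with a wide spread in treated cells and no call from the 6 libraries of 24 h alone (6.70, 18.4 and 19.9 TPM against 37.97, 44.7 and 39.9 TPM untreated).

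Both arms had left their 0 h level by then. The median log2 change of the G1/S list from 0 h was -1.18 in untreated and -0.77 in treated cells. CDC6, for example, was at 77.1 TPM at 0 h in the untreated arm, and at 24 h at a mean of 26.8 TPM untreated and 49.7 TPM treated. The G1/S median difference was -0.17 at 8 h and -0.36 at 48 h. By the test of the difference, 41 of 55 members were higher at 24 h than at 8 h, against 4.14% of all genes. Against 48 h, 42 were higher at 24 h (5.61% of all genes), with 0 lower in either test. The G2/M median difference was -0.20 at 8 h and 0.27 at 48 h. The difference was lower at 24 h than at 48 h in 23 of 53 members and higher in 1. Over all genes these shares were 3.5% and 5.61%. Against 8 h the G2/M difference was higher at 24 h in 3 members and lower in 3. Of 22 tested genes in the list of CDK inhibitors and MYC, 9 were lower and 3 higher, with a median of -0.25. The inhibitor CDKN1A was higher by 0.62 ± 0.061 and the inhibitor CDKN1B lower (-0.63). MYC, which is not an inhibitor, was lower (-0.39). RGCC (chromosome 13, 41457550 to 41470871), a regulator of the cycle and of complement, was 8.17-fold lower. It was at 98.4, 98.97 and 87.1 TPM in untreated and 14.6, 11.7 and 10.8 TPM in treated cells.

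**Figure D4:**
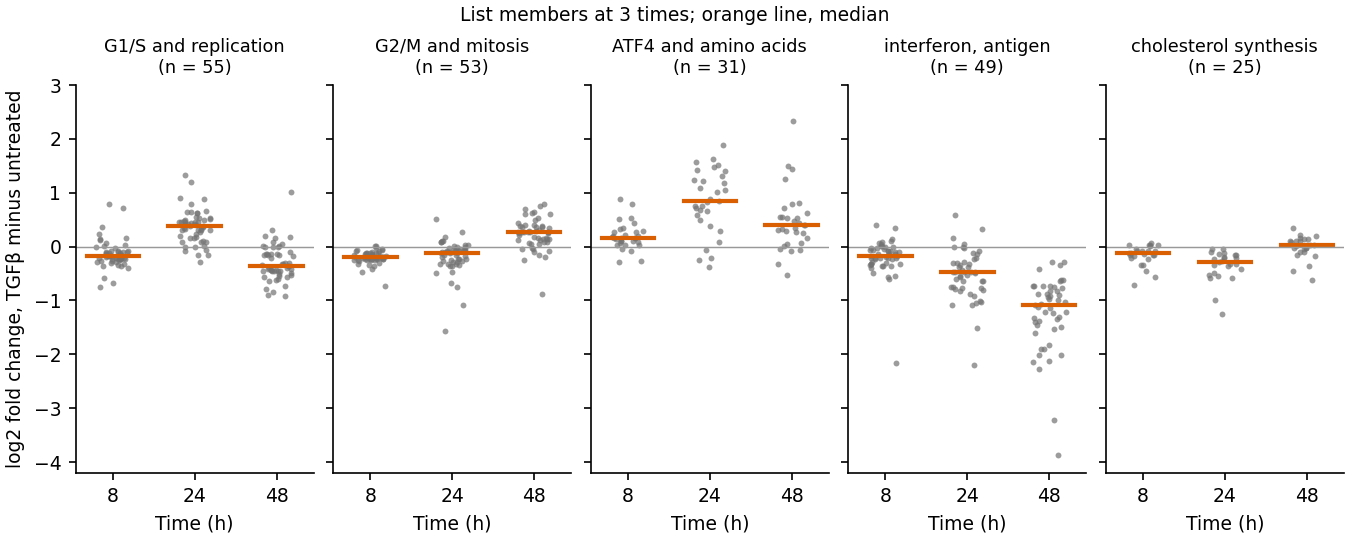
Log2 fold change of TGFβ-treated over untreated cells (vertical axis) for each tested member of 5 gene lists at 8, 24 and 48 h (horizontal axis), with 1 grey point per gene and an orange line at the median. The G1/S median was above 0 at 24 h (0.38) and below 0 at 8 h (-0.17) and 48 h (-0.36), while the interferon median went from -0.17 through -0.48 to -1.09.

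Interferon and antigen presentation genes were lower. Of 49 tested members, 32 were lower and 0 higher, with a median of -0.48. edgeR called 32 members, DESeq2 34, and limma voom on the 6 libraries of 24 h alone 24. IFIT2, an interferon-induced RNA-binding protein, was at 35.2, 42.6 and 34.9 TPM in untreated and 15.8, 20.2 and 16.2 TPM in treated cells. IFIT1 (-0.87) and the membrane restriction factor IFITM3 (-0.92) were lower, the latter with a mean from 429 to 223 TPM. OASL was at 48.02, 47.1 and 48.1 TPM without and 22.5, 22.6 and 22.9 TPM with TGFβ. From 0 h the list median changed by 0.47 in untreated and -0.05 in treated cells. IFIT2 stood at 18.3 TPM at 0 h, and the treated mean at 24 h was 17.4 TPM. By the direct test, 30 of 49 members had a higher difference at 24 h than at 48 h (5.61% of all genes). The median at 48 h was -1.09. Against 8 h, 11 had a lower difference at 24 h (2.54% of all genes). The chemokine CXCL10 was lower (-2.20, from 1.64, 2.80 and 2.04 TPM to 0.509, 0.436 and 0.360 TPM.

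NF-κB and inflammatory genes were lower or not called, with 1 exception. Of 36 tested members, 16 were lower and 1, the receptor subunit IL1RAP, was higher by 1.03 ± 0.097, with a median of -0.45. The cytokine IL1B was at 5.42, 5.97 and 5.73 TPM in untreated and 1.36, 1.04 and 1.03 TPM in treated cells. CSF2 was lower (-2.79) at a mean of 30.3 estimated counts untreated and 3.67 treated, and the inhibitor NFKBIA was lower (-0.71, mean from 61.3 to 36.2 TPM). In the IL6 family, 9 of 16 tested members were lower and 2 higher, with a median of -0.35. IL11, a cytokine of this family, was at 3.43, 2.76 and 2.68 TPM in untreated and 22.8, 22.01 and 23.7 TPM in treated cells, while the receptor IL6R (chromosome 1, 154405193 to 154469450) was at 14.1, 14.7 and 15.4 TPM and 4.01, 3.42 and 4.21 TPM in the same order. Both differed without overlap, IL11 by 3.23 ± 0.13 and IL6R by -2.03 ± 0.054. The transducer STAT3 was at 151, 151 and 154 TPM untreated and 85.3, 78.1 and 83.2 TPM treated, and the feedback inhibitor SOCS3 was lower (-0.77).

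All called lipid synthesis genes of these lists were lower. Of 25 tested cholesterol genes 15 were lower and 0 higher, with a median of -0.29, and of 22 fatty acid genes 14 were lower and 0 higher, with a median of -0.35. Scaled to the 4 reference genes, the medians were 0.06 and 0.00, below the 0.34 of all genes. LSS, which closes the sterol rings, was at 331, 279 and 301 TPM in untreated and 158, 123 and 156 TPM in treated cells, and TM7SF2, a sterol reductase, was lower (-1.25). HMGCS1, an early enzyme of the mevalonate path (-0.54), the desaturase SCD (-0.49) and the regulator SREBF1 (-0.75) were lower too. The cholesterol median had changed from 0 h by 1.53 in untreated and by 1.14 in treated cells, so the median was above the 0 h level in both arms. By 48 h the list median difference was 0.02. The difference was lower at 24 h than at 48 h in 9 of 25 members and higher in 0. Over all genes these shares were 3.5% and 5.61%. Of 23 hypoxia genes 11 were lower and 3 higher, with a median of -0.28 (0.07 when scaled to the 4 reference genes), and HIF1A, the oxygen-regulated factor, was at 607, 703 and 640.3 TPM in untreated and 292, 295 and 277 TPM in treated cells.

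Secreted signals and surface receptors included genes with large differences. Of 36 tested WNT pathway genes 15 were higher and 8 lower, with a median of 0.13. The ligand WNT5B was at 8.73, 6.68 and 7.56 TPM in untreated and 52.9, 43.96 and 48.3 TPM in treated cells, WNT7B was higher by 2.04 ± 0.14, and WNT7A was higher by 4.18 ± 0.32 with 1.03, 0.938 and 0.898 TPM in treated cells. AXIN2, a feedback target of canonical WNT signalling, was lower (-0.63). Of 14 tested thrombin and coagulation genes, 5 were higher and 4 lower, with a median of 0.04. Of the 4 protease-activated receptors in this list 3 were higher, and F2RL3 was not called (0.11). F2R (chromosome 5, 76716126 to 76735770), the thrombin receptor PAR1, was at 12.5, 13.05 and 12.6 TPM and 60.1, 63.95 and 58.7 TPM, F2RL1 (PAR2) was higher by 3.12 ± 0.068 and F2RL2 (PAR3) by 1.32 ± 0.068. CCN2, the connective tissue growth factor, was at 8.76, 8.59 and 10.03 TPM in untreated and 74.1, 72.7 and 70.8 TPM in treated cells, an 8.13-fold difference.

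Genes named by rank had to reach a mean of 10 TPM in an arm, which a higher gene could do through its treated level and a lower gene through its untreated level. Among the higher genes, LEFTY1, an extracellular inhibitor of nodal signalling, was at 0.0655, 0.0549 and 0.0535 TPM in untreated and 11.2, 8.58 and 12.4 TPM in treated cells, with means of 3.33 and 577 estimated counts. The forkhead factor FOXS1 was at 0.208, 0.248 and 0.388 TPM and 22.5, 20.9 and 24.4 TPM, and the enamel matrix protein AMTN at 1.22, 1.04 and 0.718 TPM and 55.6, 57.6 and 63.4 TPM. CGB5 and CGB8, near-identical copies of the chorionic gonadotropin beta chain between which reads cannot be assigned with certainty, had log2 differences of 6.22 and 5.95, and treated CGB8 stood at 755, 682 and 811 TPM. CHST3, a chondroitin sulfotransferase, was higher by 2.40 ± 0.042.

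Among the lower genes named by rank, ALDH1A3 (chromosome 15, 100877714 to 100916626), which makes retinoic acid, had the lowest p (adjusted p = 1.4e-18). It was at 285, 285 and 274 TPM in untreated and 101.1, 105 and 103 TPM in treated cells. TM4SF1, a tetraspanin-like surface protein, was at 926, 1027 and 952 TPM and 383, 395 and 379.7 TPM. UGCG, which makes glucosylceramide (-1.89), the transporter SLC47A1 (-1.61) and the fatty aldehyde dehydrogenase ALDH3A2 (-1.17) were lower. The same held for CCDC80 (-1.27), TRAFD1 (-1.21) and INKA2 (-1.62). NFE2, a transcription factor known from the erythroid lineage, was at 11.3, 11.7 and 11.2 TPM untreated and 1.09, 0.717 and 0.743 TPM treated, with a change from 0 h of 3.81 in untreated and 0.04 in treated cells. The helix-loop-helix factor ATOH8 (-2.90) and the small GTPase RASL11A (-3.14) were lower.

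The 24 h response was partly shared with 8 and 48 h. At 8 h 2859 genes were called (16.4%) and at 48 h 5686 (32.6%). Of the 5112 genes of 24 h and 2859 of 8 h, 2267 were called in both with the same sign and 38 with the opposite sign. For 24 and 48 h these counts were 3426 and 137. By a direct test, the difference between arms changed from 8 to 24 h in 1167 genes (6.69%), upward in 723 (4.14%). In that test time and code may not be separable. From 24 to 48 h, with a shared code within each arm, the difference changed in 1590 genes (9.11%). Of these, 979 (5.61%) had the higher difference at 24 h. Over all genes the median size of the log2 difference grew from 0.152 (8 h) to 0.218 (24 h) and 0.234 (48 h).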

How the data were processed

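RNA-Seq of SK-MES1 cells was analysed from 24 libraries, of which 6 are those of 24 h. The authors quantified the reads with kallisto 0.43.0 against Ensembl 79 transcripts of GRCh38, per the labels and methods. The deposited estimated counts are reads per transcript, not normalized, and in the deposited TPM column kallisto corrects each count for the effective length of its transcript and brings all libraries to the same sum. Transcripts were assigned to genes by identifier with GENCODE 44 (155518 of 173259 matched, 89.8%), and the others were left out, which lowers the level of genes that lost transcripts. Gene sums of counts were rounded, and 17453 genes entered the tests because 3 or more libraries held 10 or more counts for them.

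The arms were compared with limma 3.58.1 (voom, TMM factors, 8 group means, 16 residual degrees of freedom) in R 4.3.3. P-values had Benjamini-Hochberg adjustment over all tested genes and a threshold of 0.01. The study also used limma voom, but on tximport gene summaries and with F-values for the dynamics over the time course. With length-scaled counts, 4220 genes were called at 24 h here. Differences between times were tested as interaction contrasts. Alternatives were DESeq2 1.42.0 and the quasi-likelihood test of edgeR 4.0.16, beside other scalings, filters, pseudocounts, replicate blocks and each library of 24 h left out. In simulated counts of the 24 h comparison over 17303 genes, limma voom called 37 of 68 genes changed by 0.5 on the log2 scale, 64 of 66 changed by 1 and 66 of 66 changed by 2, with 3 of 17103 unchanged genes called. The simulated replicates were independent, and unchanged genes had the same expected share in every library. No effect of the code, drift over time or shift of replicate 2 was simulated, so these rates are not those of the real calls.

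Genes named by rank were the 10 rising and 10 falling protein-coding genes with the lowest p among those past 2-fold without overlap and with an arm mean of 10 TPM or more, the 5 of that kind with the largest change in each direction, and 3 per direction for each difference between times. Other named genes are members of the gene lists, mostly those with low p or defining members, and in part chosen after their values were seen. The members and lists were chosen with earlier results of these data known. The list named for the study's candidates comes from its text. Results for some genes under the rule are not reported here. Promoter windows are RefSeq sequence of GRCh38.p14. Plots were drawn with matplotlib 3.10.9 in Python 3.11.15, and tables were joined with pandas 2.3.3.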

Additional observations from a re-analysis of the deposited data

Results flagged for a closer look

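The difference between the arms was not the same at all times. One difference was tested directly against the other in limma voom (adjusted p below 0.01). By this test 1167 genes differed between 24 and 8 h, where time and code may not be separable, and 1590 between 24 and 48 h. At 0 h, where each arm has another code than at 24 h, 0 genes were called. Among the genes named by the rule for such changes, the 24 h difference exceeded the 8 h difference by 1.18 for PMEPA1. The change was -1.05 for OASL, -0.80 for SDC4, a cell surface proteoglycan, and -1.45 for ADGRG1, an adhesion receptor.

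Against 48 h, CEMIP, which degrades hyaluronan, differed by 1.91 and the secreted hormone STC2 by 1.81. At 24 h CEMIP had means of 23.3 TPM in untreated and 68.1 TPM in treated cells, and at 48 h of 102 and 85.2 TPM. STC2 stood at 379.9 TPM untreated and 313 TPM treated at 0 h, then 27.5 and 63.8 TPM at 24 h, and 69.1 and 48.4 TPM at 48 h. The protease HTRA1 (-1.46), PRSS2 (-1.70) and the transcription factor MAF (-1.23) had smaller differences at 24 h than at 48 h.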

How the results depend on the processing

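Of 149 named genes, 141 were called, and 140 of these stayed called in every fit that left out 1 library of 24 h, the exception being COL1A2. Leaving out 1 library gave 4288 to 4867 called genes (5112 with all libraries), 1045 to 1080 past 2-fold (1096), 896 to 1086 for 24 against 8 h (1167) and 1220 to 1498 for 24 against 48 h (1590). Leaving out replicate 2 of both arms, chosen after seeing the data, gave 4352, 1004, 982 and 1374. The number of called genes was 2733 with only the 6 libraries of 24 h and 8104 with sample quality weights. It was 2893 for the change of the difference from 0 h and 9282 with scaling to the 4 reference genes. By list, the 6 libraries alone called 6 of 25 cholesterol, 7 of 53 G2/M, 9 of 35 junction and 5 of 21 myosin genes. They called 24 of 34 endoplasmic reticulum and 24 of 31 amino acid genes. On log2(TPM + 1), 553 genes passed 2-fold. The test against 8 h gave 756 genes on log2(TPM + 1), 696 on log2(TPM + 0.1) and 772 with length-scaled counts, and the test against 48 h gave 1000 on log2(TPM + 0.1) and 1058 with length-scaled counts. The cause was not tested.

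With the replicate number as a block within each time point, 7166 genes were called, 1113 past 2-fold, 2567 against 8 h and 3238 against 48 h. With 1 block over all libraries 5657 were called, and with the 6 libraries alone and a block 5884. Deviations of same-numbered libraries of 24 h correlated at 0.13, 0.25 and 0.06 over 17453 genes, and at 0.61, 0.81 and 0.56 over 10523 genes with higher counts, where different numbers gave -0.72 to 0.56. The labels do not say that a number marks a shared culture, so pairing was not assumed.

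The sign turned in genes near 0. CDH1 was -0.08 with library totals and with quality weights, 0.00 with at least 50 counts and on log2(TPM + 0.1), -0.01 on log2(TPM + 1) and without replicate 2 of both arms, and between -0.05 and 0.06 with 1 library left out. ZEB1 was -0.02 with totals and -0.01 on both TPM scales. TAGLN was 0.09 on log2(TPM + 1), 0.12 on log2(TPM + 0.1) and 0.13 with length-scaled counts. Scaling to the 4 reference genes, which moved the median of all genes to 0.34, gave 0.30 for SMAD3, 0.19 for GUSB, 0.06 for HPRT1, 0.19 for TAGLN and 0.07 for RRM2. Under the same scaling 8 of 47 list medians changed sign beyond their replicate spread: epithelial junctions 0.13, G2/M 0.23, CDK inhibitors and MYC 0.10, hypoxia 0.07, pentose phosphate and NRF2 genes 0.15, NOTCH 0.21, lysosome 0.26 and ribosomal proteins 0.27, all below the median of all genes. No list median did so in the other scalings, filters, count models and left-out libraries tried for the lists. The calls of BAMBI, ID1, PLK1, MYC, SHMT1, HMGCS1, SCD and GAPDH were also lost under this scaling. With only the 6 libraries of 24 h the calls of OCLN, CCNA2, HMGCS1, RRM2 and COL1A2 were lost, and for the change from 0 h those of ID1, CCNA2, MYC and COL1A2. The call of COL1A2 (adjusted p = 0.00919 in limma voom) was also lost in edgeR (0.0201) and DESeq2 (0.071), with a block within each time point (0.0245), with the 6 libraries and a block, with library totals, without the count filter and on log2(TPM + 1). Calls were gained under some settings by SMAD3, GUSB, HPRT1, CDH1 and ZEB1. At 47233105 or more estimated counts per library, counting limits only genes of low level.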
